A study of Mus musculus with 6 samples.

Results

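AMP-activated protein kinase (AMPK) was examined through 7 genes in mouse myeloid cells with and without a Clec12a knockout: the catalytic subunit genes Prkaa1 and Prkaa2, the beta subunit genes Prkab1 and Prkab2, the gamma subunit genes Prkag1 and Prkag2, and Stk11, which encodes the upstream kinase LKB1. They were picked by gene symbol out of 21515 genes, and the reason for the choice was that Prkab1 RNA was near 0 in the knockout libraries. Prkab1 is therefore described without a test, and the other 6 genes, taken by family and not by level, carry the comparison, in particular whether Prkab2 stood higher where Prkab1 was missing.

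AMPK is a heterotrimer of 1 alpha, 1 beta and 1 gamma subunit that is switched on when AMP and ADP rise relative to ATP. The gamma subunit binds the nucleotides, the alpha subunit carries the kinase domain that LKB1 phosphorylates, and the beta subunit holds the other subunits together and binds glycogen through its carbohydrate-binding module. Each subunit has more than 1 gene, so the loss of a gene can leave a complex built on its paralog.

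RNA was measured by bulk sequencing in C57BL/6 bone marrow cells made immortal by NUP98-NSD1, a fusion protein of myeloid leukaemia, together with NRASG12D, a mutant RAS locked in its active state. All 6 libraries came from cells carrying a lentiviral Cas9 vector with a dTomato reporter, sorted as single cells and expanded. In 3 libraries (knockout replicates 1, 4 and 5) the vector held the T44 guide against Clec12a, and in the other 3 (control replicates 6, 8 and 9) a guide against bacterial lacZ. All were labelled as kept for 48 hours in 15% serum with human IL-6 (10 ng/mL), mouse IL-3 (6 ng/mL) and mouse stem cell factor (20 ng/mL). Each library thus stands for cells grown from a single-cell sort, the labels do not say how far the sorts are independent, and p-values reflect variation among these 6 libraries, nothing wider.

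The deposited values are FPKM, which divide the fragments of a gene by transcript length and by the library's mapped fragments. Knockout libraries summed to between 590211 and 699113 FPKM and controls to between 534440 and 554534 FPKM, while estimated depth lay between 33500000 and 60800000 fragments. Clec12a itself was at 170, 129 and 94.5 FPKM in knockout replicates 1, 4 and 5 and at 157, 246 and 280 FPKM in the controls, so the groups overlapped; FPKM summed over a gene need not fall after a small edit. Of 12 myeloid and progenitor markers, 11 passed the filter on low values, with Cd34 under 1 FPKM in every library, and their sum was 2567 to 5290 FPKM in knockout and 1526 to 3774 FPKM in control libraries. Most of that sum was Elane, at 1994, 4769 and 3060 FPKM in knockout and 2848, 2009 and 801 FPKM in control libraries. The sum therefore says little of the other markers. Some differed widely between libraries: Mpo, a granule enzyme of early myeloid cells, was at 0.289, 1.20 and 9.36 FPKM in knockout and 455, 737 and 10.2 FPKM in control libraries, and Kit, the stem cell factor receptor, at 0.736, 1.18 and 6.66 against 27.6, 8.03 and 0.715 FPKM. Control replicate 9, lowest of the controls in both, was also the lowest of them in Prkab1, and the part of this difference in the results was not tested. All listed B cell, T and NK cell, stroma and endothelium markers were under 1 FPKM in every library. Of 8 erythroid markers, 6 were under 1 FPKM in every library, Hbb-bs at 0 among them, while Tfrc, the transferrin receptor that dividing cells also make, was at 23.7 to 123 FPKM. Klf1, the remaining one, was low but higher in every knockout library, at 1.12, 1.65 and 0.539 FPKM against 0.351, 0.281 and 0.340 FPKM in controls. Of 5 mast cell and basophil markers, 4 were under 1 FPKM everywhere, with Cpa3 and Tpsb2 at 0 and Mcpt8 at 1.91 to 11.97 FPKM. Of 5 macrophage markers, Adgre1 alone passed the filter, at 22.1 to 98.4 FPKM, and of 5 megakaryocyte markers, summing to at most 4.37 FPKM, Pf4 and Ppbp did. In bulk RNA, fewer cells expressing a gene and less RNA per cell cannot be told apart.

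The paralogs of each subunit can be told apart by sequencing, as their transcripts show. The beta genes share 72.9% of 802 aligned coding bases, and their longest identical stretch is 23 bases. It lies in the part that encodes the carbohydrate-binding module and is printed from the GENCODE M21 transcripts (GRCm38), as the longest run of bases that the pair shares exactly. Capitals mark the shared 23 bases, and lower case the 30 bases on either side.
Prkab1: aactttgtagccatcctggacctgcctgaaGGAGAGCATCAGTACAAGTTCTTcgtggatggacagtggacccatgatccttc
Prkab2: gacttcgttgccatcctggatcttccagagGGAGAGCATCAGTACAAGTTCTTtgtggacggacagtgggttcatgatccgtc
The alpha pair shares 70.5% of 1631 aligned coding bases, with a longest common stretch of 35 bases close to the start codon, again in capitals. The Prkaa2 line begins at its start codon.
Prkaa1: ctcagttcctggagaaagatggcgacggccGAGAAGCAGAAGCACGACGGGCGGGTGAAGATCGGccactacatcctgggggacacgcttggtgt
Prkaa2: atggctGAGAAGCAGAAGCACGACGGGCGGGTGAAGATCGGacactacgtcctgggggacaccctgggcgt
The gamma pair shares 69.4% of 993 aligned coding bases and no identical stretch over 15 bases. No other annotated transcript matched a member over at least 100 bases at 95% identity, except those of genes whose exons overlap it on the opposite strand: B130046B21Rik at Prkag1 and Cbarp at Stk11.

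Prkab1 (chromosome 5, 116013586 to 116024508, minus strand, GRCm38), which encodes the beta1 subunit, was listed at 0, 0 and 0.0449 FPKM in knockout replicates 1, 4 and 5. It stood at 9.60, 12.7 and 2.74 FPKM in control replicates 6, 8 and 9. All 3 knockout libraries thus lay far below all 3 controls, and the lowest control was 61.1 times the highest knockout value. With the 2089 bases of its longest transcript, these values correspond to about 0, 0 and 3.14 fragments in the knockout libraries and 1220, 1265 and 260 fragments in the controls. A count of 0 allows up to 3 fragments, or 0.0286 and 0.0282 FPKM in knockout replicates 1 and 4, counting error only. Control replicate 9 held the least Prkab1 of the controls, and the controls spanned a 4.62-fold range.

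Prkab1 was the 1 gene of 21515 that was under 0.1 FPKM in every knockout library and at 1 FPKM or more in every control. The reverse pattern was shown by 3 genes, Copz2, Dnajc22 and Selp. These counts are descriptions, since Prkab1 was chosen for this pattern.

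**Figure D1:**
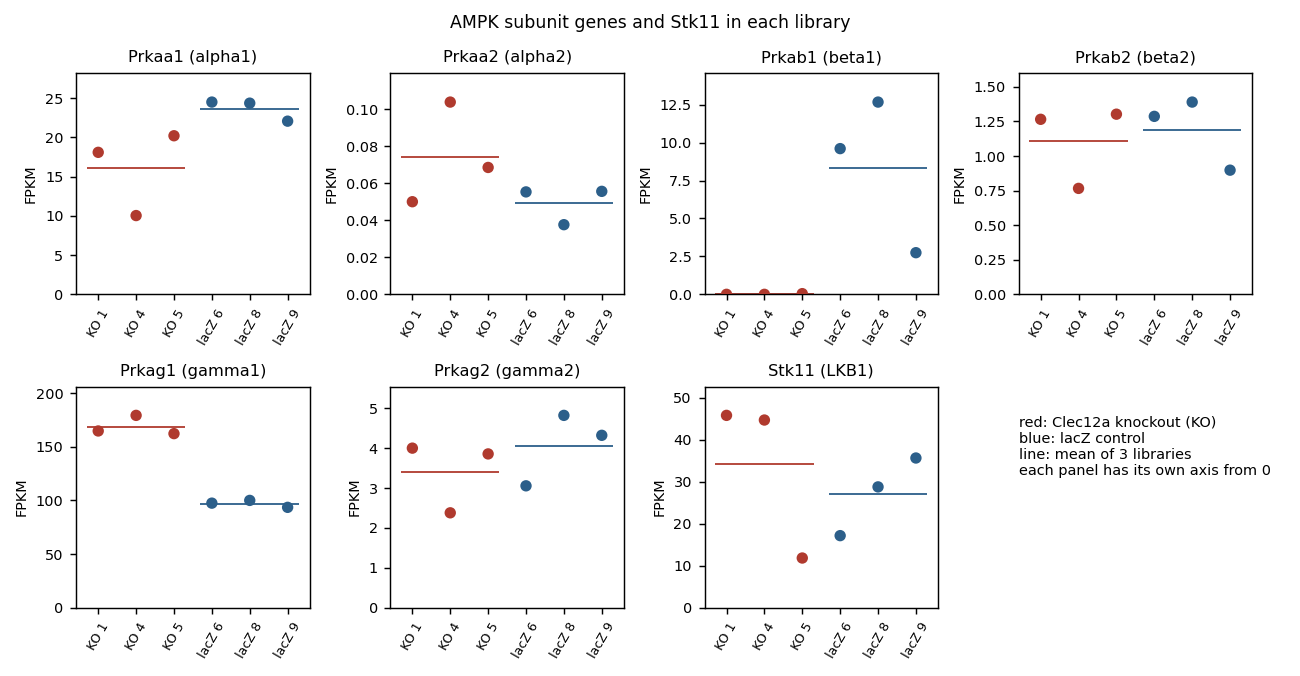
FPKM of each of the 7 genes (vertical axis, linear from 0, its own scale per panel) in knockout replicates 1, 4 and 5 (red) and lacZ control replicates 6, 8 and 9 (blue), with group means as lines. Prkab1 is at or near 0 in the knockout libraries, Prkab2 overlaps between groups, Prkaa1 is lower and Prkag1 higher in all 3 knockout libraries.

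Prkab2 (chromosome 3, 97658193 to 97673812, plus strand), the gene of the beta2 subunit, was not measurably higher in knockout cells. Knockout replicates 1, 4 and 5 held 1.27, 0.766 and 1.30 FPKM, and control replicates 6, 8 and 9 held 1.29, 1.39 and 0.898 FPKM. The groups overlapped almost fully, with the lowest value in knockout replicate 4 and the highest in control replicate 8. Group means were 1.11 ± 0.30 and 1.19 ± 0.26 FPKM (SD, n = 3 each). Knockout minus control on the log2(FPKM + 1) scale was -0.06 (SE 0.20, 95% interval -0.52 to 0.41; adjusted p = 0.873, limma, Benjamini-Hochberg over 9830 genes). By an exact permutation test (two-sided) the p was 0.6; this design cannot go below 0.1. The sign of this small value turned without knockout replicate 4 (0.067), without control replicate 8 (0.009) and once libraries were corrected for GC content and transcript length (0.18, SE 0.18, adjusted p = 0.526, limma). The interval still allows a difference in either direction, and adding 1 to values near 1 FPKM narrows it. With a pseudocount of 0.1 the value was -0.10 (SE 0.37), and with 0.01 it was -0.11 (SE 0.41). A higher or lower Prkab2 level within that wider range is therefore not excluded.

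The beta subunit RNA that was left in knockout cells was almost all Prkab2, within its control range in replicates 1 and 5 and below it in replicate 4. Prkab1 made up 88.2%, 90.1% and 75.4% of the summed beta FPKM in control replicates 6, 8 and 9. In the knockout libraries its share was 0%, 0% and 3.33%. The sum of both genes was 1.27, 0.766 and 1.35 FPKM in knockout libraries against 10.9, 14.1 and 3.64 FPKM in controls, so that knockout cells averaged 11.8% of the beta RNA of controls. Even the control library with the least beta RNA held 2.80 times the highest Prkab2 level of a knockout library. In no knockout library did Prkab2 reach the summed beta level of any control. Most of each control sum was Prkab1, chosen for being near 0 in knockout, so these gaps largely follow from the choice. They describe how much beta RNA was left and do not test whether Prkab2 was higher in knockout cells.

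Prkag1 (chromosome 15, 98812797 to 98831521, minus strand), which encodes the gamma1 subunit, was the most abundant of the 7 in every library. It was measured at 165, 179 and 162 FPKM in knockout replicates 1, 4 and 5 and at 97.5, 100.04 and 93.6 FPKM in control replicates 6, 8 and 9. Each group was tight and the groups lay apart, with means of 169 ± 9.20 and 97.03 ± 3.26 FPKM (SD, n = 3 each). On the log2 scale the difference was 0.79 (SE 0.16, 95% interval 0.42 to 1.17), and its adjusted p of 0.0513 (limma) narrowly missed the threshold of 0.05. Prkag1 also missed it with quantile normalization (log2 fold change 0.67, adjusted p = 0.0574, limma) and at equal total FPKM (0.59, adjusted p = 0.0731, limma). With libraries scaled by median ratios it passed (adjusted p = 0.0445, limma, log2 fold change 0.85). It also passed with array weights, which weigh each library by its fit (adjusted p = 0.00178, limma), but there 42.3% of all genes passed. After each library was corrected for transcript length and GC content the difference was smaller, 0.50 (adjusted p = 0.0962, limma), and with 1 library left out the adjusted p lay between 0.0666 and 0.223. Of its exon bases, 43.7% are shared with the antisense gene B130046B21Rik, and no source used here says whether counting was stranded, so reads of the pair cannot be told apart.

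Prkaa1 (chromosome 15, 5143861 to 5181899, plus strand), the gene of the alpha1 catalytic subunit, was at 18.1, 10.04 and 20.2 FPKM in knockout replicates 1, 4 and 5. The controls were at 24.5, 24.4 and 22.1 FPKM. All knockout values were below all controls, with knockout replicate 4 the lowest by far. On the log2 scale knockout minus control was -0.58 (SE 0.27, 95% interval -1.19 to 0.03), which did not pass (adjusted p = 0.192, limma). Without knockout replicate 4 the value was -0.29 (adjusted p = 0.320, limma), and after the length and GC correction it was -0.23 (adjusted p = 0.476, limma). With array weights Prkaa1 passed (adjusted p = 0.0368, limma), as did 42.3% of all genes.

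Prkaa2 (chromosome 4, 105029874 to 105109890, minus strand), the gene of the alpha2 subunit, was close to absent: 0.05, 0.104 and 0.0685 FPKM in knockout and 0.0553, 0.0376 and 0.0556 FPKM in control libraries. It was the 1 member that missed the filter of 1 FPKM in 3 libraries, and Prkaa1 made up at least 98.98% of alpha FPKM in every library. The groups overlapped (exact two-sided permutation test, p = 0.3). Prkag3, the third gamma gene and not among the 7, was at or below 0.0146 FPKM throughout.

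Prkag2 (chromosome 5, 24862744 to 25100642, minus strand), the gene of the gamma2 subunit, was at 4.003, 2.38 and 3.86 FPKM in knockout and 3.06, 4.82 and 4.32 FPKM in control libraries. The groups overlapped, and the log2 fold change of -0.21 (SE 0.25, 95% interval -0.77 to 0.36) did not pass (adjusted p = 0.601, limma). Antisense genes cover part of it, 12.3% of its exon bases for Prkag2os2 and 2.19% for Prkag2os1.

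Stk11 (chromosome 10, 80115803 to 80130682, plus strand), which encodes LKB1, varied more within each group than between them. It was at 45.9, 44.7 and 11.8 FPKM in knockout replicates 1, 4 and 5 and at 17.2, 28.8 and 35.7 FPKM in control replicates 6, 8 and 9. Knockout replicate 5 held the lowest value of all 6 libraries and the other knockout libraries the highest, a 3.88-fold range within the knockout group against 2.08-fold in controls. On the log2 scale knockout minus control was 0.16 (SE 0.50, 95% interval -0.98 to 1.29; adjusted p = 0.855, limma). Cbarp, on the opposite strand, shares 5.07% of its exon bases.

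Of the 5 tested members other than Prkab1, 0 passed the adjusted threshold and 1, Prkag1, had an unadjusted p under 0.05 (limma). Over all 9830 genes tested, 187 passed, or 1.9%, and 27.9% had an unadjusted p under 0.05. The groups did not overlap for 2 of the 5, Prkag1 and Prkaa1, against 36.3% of all genes tested, so 2 of 5 is close to the background.

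On the length-corrected FPKM scale, the order of levels was alike in the controls: Prkag1 stood highest at 97.03 ± 3.26 FPKM, followed by Stk11 (27.2 ± 9.36) and Prkaa1 (23.7 ± 1.37), which did not differ beyond their spread. Prkab1 (8.34 ± 5.08) and Prkag2 (4.07 ± 0.91) came next and changed places in control replicate 9. Prkab2 (1.19 ± 0.26) and Prkaa2 (0.0495 ± 0.0103) were lowest, each clearly apart from the gene above it. In the knockout libraries the order was the same except that Prkab1 was last, below Prkaa2, and that Prkaa1 exceeded Stk11 in replicate 5.

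Ratios within a library do not depend on how libraries are scaled, so those without Prkab1 were compared as well, chosen with the values known. Prkag1 stood at 9.10, 17.9 and 8.03 times Prkaa1 in knockout replicates 1, 4 and 5. In the controls it was at 3.98, 4.10 and 4.24 times Prkaa1. The controls lay within a narrow band and all knockout libraries above it. That separation was fixed in advance, since Prkag1 was higher and Prkaa1 lower in all 3 knockout libraries. The exact two-sided permutation test on the log ratio (p = 0.1, the smallest possible) therefore adds no support. The ratio of Prkab2 to Prkaa1 was 0.0699, 0.0763 and 0.0644 in knockout and 0.0525, 0.0570 and 0.0407 in control libraries. It too was higher in all 3 knockout libraries (exact two-sided permutation test, p = 0.1, and 0.1 for both when adjusted over the 2 ratios). The FPKM of Prkab2 overlapped, while that of Prkaa1 was lower in all 3, and both were known when the ratio was chosen. The result for this ratio therefore adds no support for a higher level of Prkab2. The genes differ in length, with longest transcripts of 1652 bases for Prkag1 and 4655 for Prkaa1, and the length and GC correction brought their log2 fold changes closer, from 0.79 and -0.58 to 0.50 and -0.23. Unequal values within a library show unequal change, not which of the genes moved.

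**Figure D2:**
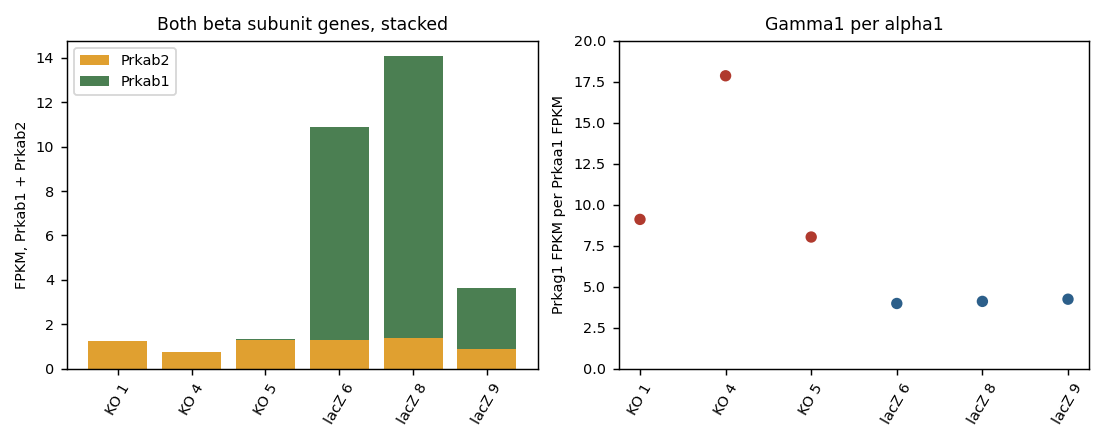
Left, summed FPKM of the beta genes per library (bars from 0), Prkab2 in orange below Prkab1 in green: the knockout bars reach 0.766 to 1.35 FPKM and consist of Prkab2, the control bars 3.64 to 14.1 FPKM. Right, the ratio of Prkag1 to Prkaa1 FPKM per library, at 8.03 to 17.9 in knockout (red) and 3.98 to 4.24 in control libraries (blue).

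The genes beside each member were examined to see whether a stretch of chromosome moved with it, taking the 5 nearest genes past the filter on each side. Around Prkab1, none of 10 neighbours passed the adjusted threshold (limma), against 1.9% of all genes. Of the 10, 6 were higher and 4 lower, and their median log2 fold change was 0.31. Knockout and control values lay apart for 3 of the lower and 1 of the higher neighbours. Over all genes these shares were 21.8% and 14.5%. The nearest of the 10, Cit, a kinase of cytokinesis whose gene lies 4.64 kb away, was at 7.39, 5.53 and 5.98 FPKM in knockout and 11.2, 11.6 and 11.999 FPKM in control libraries. Its groups did not overlap, but Cit was still clearly expressed in each knockout library (log2 fold change -0.79, SE 0.20, adjusted p = 0.0773, limma). On the other side the nearest gene past the filter, Suds3, lies 1067 kb away and was at 4.79, 12.2 and 2.63 FPKM in knockout and 2.88, 3.19 and 3.01 FPKM in control libraries. No neighbour was near 0 in the knockout libraries as Prkab1 was.

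Around Prkab2, none of 10 neighbours passed, against 1.9% of all genes, so a count of 0 among so few says little. None had groups that did not overlap, against 36.3% of all genes. Their median log2 fold change was 0.04. Fmo5, a flavin monooxygenase gene 2.91 kb away, was the highest of them at 0.84 (adjusted p = 0.177, limma).

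Prkag1 lies among genes that were mostly higher in knockout cells. Of its 10 neighbours, all within 415 kb, 3 rose and none fell (limma), against 1.38% of all genes that rose and 0.519% that fell. The groups did not overlap for 7 in the higher direction, against 14.5% of all genes. The neighbours' median log2 fold change was 0.56, against -0.06 over all genes tested. Those that rose were Ccdc65, a coiled-coil protein of motile cilia (5.67 ± 0.59 against 0.839 ± 0.852 FPKM, adjusted p = 0.0292), the small GTPase gene Rnd1 (27.9 ± 6.91 against 10.6 ± 2.42 FPKM, adjusted p = 0.0458) and the alpha-tubulin gene Tuba1a (119 ± 9.002 against 62.7 ± 6.43 FPKM, adjusted p = 0.0444). Kmt2d, a histone methyltransferase gene whose 3′ end lies 0.148 kb from Prkag1, was at 3.14, 2.73 and 2.81 FPKM in knockout and 2.09, 1.91 and 2.06 FPKM in control libraries (adjusted p = 0.228). The exception in the other direction was Ddx23, a splicing helicase gene, at 3.58 ± 0.29 against 6.52 ± 0.59 FPKM (adjusted p = 0.0843). The part of the chromosomal neighbourhood in the level of Prkag1 was not tested. Around Prkaa1, Prkaa2, Prkag2 and Stk11, none of 10 neighbours each passed (limma), where 1.9% of all genes did. Those of Prkaa2 were mostly lower in knockout cells, 9 of 10, with a median of -0.58 and 5 whose groups did not overlap in that direction, against 21.8% of all genes. They span 4591 kb, and all the lower ones except Pde4b were highest in control replicate 8. Ttc4, for example, was at 20.9, 18.6 and 18.2 FPKM in knockout and 22.7, 34.9 and 21.9 FPKM in control libraries. The part of that 1 control library in the shift was not tested. Medians around Prkaa1, Prkag2 and Stk11 were -0.12, -0.15 and 0.10. Around Stk11 the groups did not overlap for 3 higher and 0 lower neighbours, against 14.5% and 21.8% of all genes. These counts were 1 and 1 around Prkaa1 and 2 and 2 around Prkag2.

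**Figure D3:**
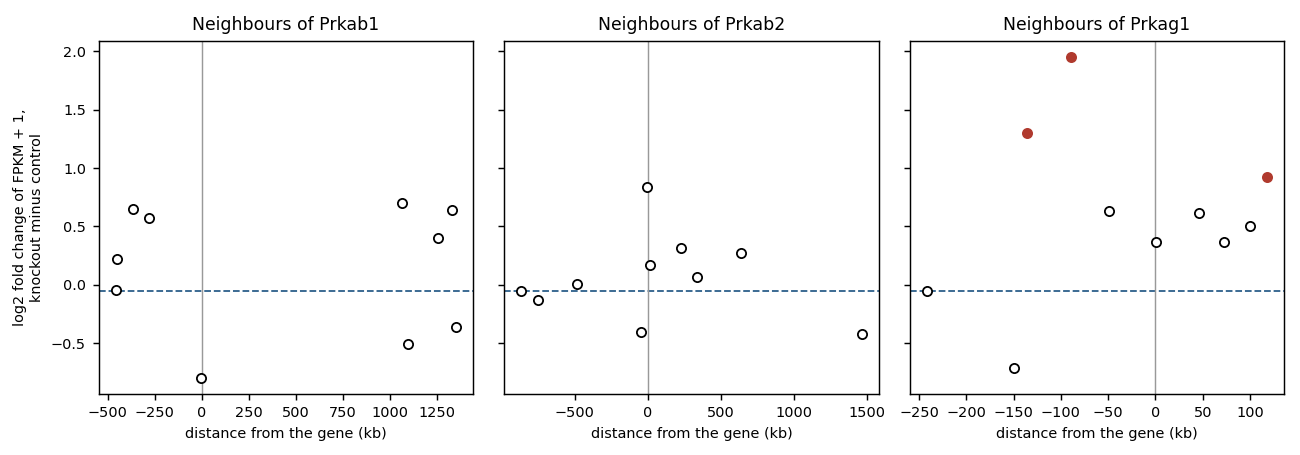
Log2 fold change of FPKM + 1, knockout minus control, of the 5 nearest expressed genes on each side of Prkab1, Prkab2 and Prkag1 against distance from the gene in kb. Filled red points passed the adjusted threshold, open points did not, and the dashed line is the median of all genes tested (-0.06); points beside Prkag1 lie mostly above the line, those beside the beta genes on both sides of it.

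By likeness of profile, measured as the root mean square difference of log2(FPKM + 1) values centred on each gene's mean over the 6 libraries, the genes most like Prkab1 were Prom1 (0.62), Btla (0.65), Ankle1 (0.71), Slco4a1 (0.75) and Snhg4 (0.79). None was near 0 in the knockout libraries in the way of Prkab1: Prom1, which encodes the surface protein CD133, came closest at 0.188, 0.116 and 0.269 FPKM, with 2.77, 12.6 and 2.95 FPKM in controls. Among those most like Prkab2 were Sde2, Armc10, Adck1 and Slx4ip, at 0.05 to 0.06. These too were lowest in knockout replicate 4 or, for Armc10, control replicate 9.

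Genes that act on AMPK or are acted on by it were counted in 9 lists of 95 genes, of which 94 had values and 74 passed the filter. None of the 74 passed the adjusted threshold (limma), against 1.9% of all genes. At an unadjusted p under 0.05 there were 25, or 33.8%, 19 of them lower and 6 higher, against 27.9% of all genes. The groups did not overlap for 29, or 39.2%, against 36.3% of all genes: 23 had lower knockout values, against 21.8% of all genes, and 6 higher ones, against 14.5%. The median over the lists was -0.19, with 51 genes lower and 23 higher, against -0.06 over all genes, of which 54.0% were lower.

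Upstream, none of 6 tested activators and LKB1 partners passed, and their median was 0.15. Cab39l, the beta form of MO25, a scaffold that stabilises LKB1 together with a pseudokinase, was at 48.02, 35.8 and 37.05 FPKM in knockout and 28.9, 30.4 and 31.7 FPKM in control libraries (adjusted p = 0.213, limma). Its groups did not overlap. Camkk2, the calcium-dependent kinase that can activate AMPK without LKB1, was at 18.8, 15.4 and 9.16 against 21.4, 18.7 and 34.3 FPKM, and its groups overlapped.

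Of 8 tested AMPK-related kinases, which LKB1 or other kinases activate, none passed, and the median was -0.24. Nuak2 was at 12.3, 7.43 and 9.61 FPKM in knockout and 16.3, 16.98 and 18.9 FPKM in control libraries, with no overlap (adjusted p = 0.0873, limma). Mark2, a kinase of microtubule-associated proteins, did not differ by more than its spread (25.7 ± 5.91 against 25.4 ± 3.03 FPKM).

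Of 7 tested phosphatase genes named for dephosphorylating AMPK, none passed, and the median was 0.68, the highest of the lists. It was 0.26 without knockout replicate 4, in which 5 of the 7 were at their highest. Ppp1cc, a catalytic subunit of protein phosphatase 1, was at 11.5, 30.5 and 6.19 FPKM in knockout and 7.55, 7.46 and 7.22 FPKM in control libraries. Ppm1f went the other way, at 28.5, 12.7 and 35.1 against 83.5, 66.1 and 39.1 FPKM (adjusted p = 0.0951, limma).

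Among substrates, those in lipid synthesis and transport had a median of -0.57, the lowest of the lists with all 6 libraries. Without knockout replicate 4 it was -0.36, above that of the folliculin and TFEB list (-0.47). In the lipid list, with all libraries, 7 of 8 were lower and none passed. Plin3, a lipid droplet coat protein, was the 1 higher gene, at 80.003, 87.6 and 88.1 against 53.5, 59.5 and 62.1 FPKM (adjusted p = 0.0990, limma). Of 9 autophagy and mitochondrial dynamics substrates, 8 were lower and none passed (median -0.25). Becn1, a core autophagy factor, was at 114 ± 22.2 against 121 ± 8.26 FPKM, and Mff, the receptor for mitochondrial fission, at 78.5 ± 18.4 against 89.1 ± 4.62 FPKM, both within their spread.

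Of 14 substrates in glucose use and transcription, none passed (median -0.12). Txnip, an inhibitor of glucose uptake, was at 46.6, 49.6 and 45.97 FPKM in knockout and 18.2, 37.2 and 49.02 FPKM in control libraries, so that control replicate 9 lay within the knockout range. The glycogen synthase gene Gys1 was at 23.6 ± 8.97 against 25.6 ± 7.60 FPKM. Hdac7, named after its values were seen, was at 4.39, 7.60 and 2.27 against 0.949, 0.916 and 1.39 FPKM (adjusted p = 0.0710, limma), and it passed without knockout replicate 5 (adjusted p = 0.0412).

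Of 9 tested genes of mTORC1 and its TSC inhibitor complex, which AMPK acts on to slow growth, none passed (median -0.22). Rheb, the GTPase that activates mTORC1, was at 206, 195 and 199.9 FPKM in knockout and 142, 156 and 181 FPKM in control libraries (adjusted p = 0.250, limma). Akt1s1 was at 26.8 ± 5.56 against 30.4 ± 2.23 FPKM. Of 7 folliculin complex and TFEB family genes, none passed (median -0.48). Flcn, which encodes folliculin, was at 17.7, 12.1 and 25.9 against 42.8, 32.6 and 28.4 FPKM, with no overlap (adjusted p = 0.105). Fnip2, a folliculin partner named after its values were seen, came nearest to the threshold of all 74, at 0.988, 0.985 and 1.89 against 4.80, 3.26 and 3.396 FPKM (adjusted p = 0.0585). Tfec, of the TFEB family, was at 67.6 ± 10.5 against 95.5 ± 22.6 FPKM. In this list 5 genes were lower and 2 higher. Tfeb, named after its values were seen, was higher, at 4.42, 6.02 and 2.62 against 1.53, 1.14 and 2.35 FPKM, with no overlap (adjusted p = 0.0951, limma). Tfe3 was at 12.5 ± 2.71 against 12.4 ± 2.56 FPKM.

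Of 6 tested adenylate kinases and AMP enzymes, which set the level of AMP that AMPK senses, none passed (median -0.36). Ak6 was at 153 ± 24.8 against 172 ± 29.8 FPKM (adjusted p = 0.629, limma).

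**Figure D4:**
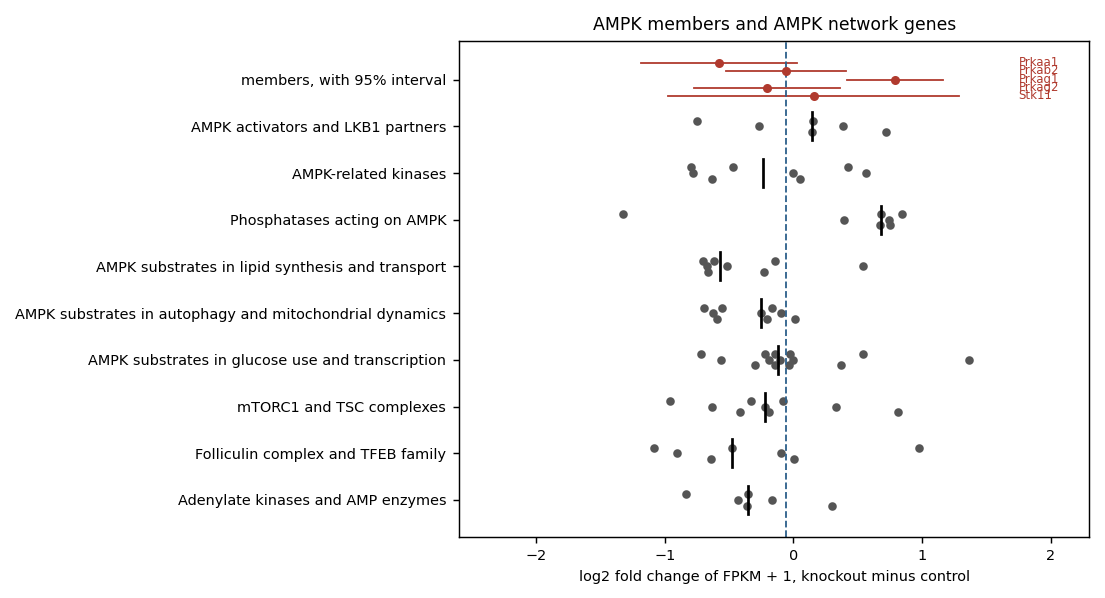
Log2 fold change of FPKM + 1, knockout minus control, for the 5 tested members other than Prkab1 (red, top to bottom Prkaa1, Prkab2, Prkag1, Prkag2, Stk11, with 95% intervals) and for the 74 tested network genes by list (grey points, black bar for the list median). The dashed line is the median of all genes tested (-0.06), and only the interval of Prkag1 lies wholly to one side of it.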

How the data were processed

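RNA was sequenced from 3 knockout and 3 control libraries. The authors deposited 1 table of FPKM by gene symbol, and column names matched the sample titles. FastQC, STAR 2.5.2b and mm10 were used, per the submitters' processing notes; no source used here names the counting tool, annotation, strand use or filters. Count models were left out, since FPKM are not counts.

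Genes at 1 FPKM or more in at least 3 libraries (9830) were tested as log2(FPKM + 1) with limma 3.58.1 in R 4.3.3 (intensity trend, two-sided, Benjamini-Hochberg adjustment, threshold 0.05). "Rose" and "fell" mean past that threshold. Fold changes on this scale understate those of low genes. In simulated data the same fit recovered 1.49% of 1.5-fold, 40.3% of 2-fold and 100% of 4-fold changes on this scale. Of its 105 calls there, 11 were false. A gene that did not pass is therefore not shown to be unchanged. Depth was estimated from 4153 genes with 1 annotated transcript: 58.6% to 63.9% of values up to 5 fragments came within 0.1 of a whole fragment, against 20% by chance, so depths are estimates. Coordinates and transcripts are from GENCODE M21 (21414 symbols matched directly, 74 by synonym, 27 not); paralogs were aligned with Biopython 1.88 and copies searched with blastn 2.17.0.

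The members, lists and tests were chosen with earlier results of these data known. Named genes are the members, the 5 nearest filtered genes on each side of a member, the 5 profiles most like each beta gene, Clec12a and, per list, up to 3 genes past the threshold or the 2 with the highest mean. From the neighbours, the nearest, the called and the extreme ones are given. Some genes that the rule names are not reported here. Alternatives were other pseudocounts (0.1 and 0.01), filters, scalings, limma variants and leaving out each library; correcting each library for transcript length and GC was added after seeing the data.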

Additional observations from a re-analysis of the deposited data

How the results depend on the processing

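No paired analysis was possible because the groups share no replicate number. Prkab2 missed the threshold in every setting that gave it a value (it was not tested at a mean FPKM of at least 5). Its log2 fold change ranged from -0.16 to 0.067 when 1 library was left out, and was 0.18 (SE 0.18) after the length and GC correction, a change of sign. Prkag1 was higher and Prkaa1 and Prkag2 lower in all settings that tested them. Prkag1 passed with median-ratio scaling and array weights and Prkaa1 with array weights, while the length and GC correction moved Prkag1 from 0.79 to 0.50, Prkaa1 from -0.58 to -0.23 and Prkag2 from -0.21 to -0.11. Stk11, never past the threshold, ranged from -0.16 to 0.77 with 1 library left out and was -0.041 at equal totals. The network lists kept a count of 0 except with array weights and when leaving out 1 library (0 to 1). With array weights 31 of the 74 passed, where 42.3% of all genes did. Of all genes, 187 passed (136 rose, 51 fell), 122 with a pseudocount of 0.01, 23 without the filter (20093 genes tested), 97 at a mean FPKM of at least 5, 120 at equal totals (71 rose, 49 fell; median over all genes -0.24 in place of -0.06), 4154 with array weights and 20 to 197 with 1 library left out; the cause was not tested, beyond fewer samples or other genes tested. For Prkab2, near 1 FPKM, about 195 to 391.7 estimated fragments stood behind each value.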
